A study of Pan troglodytes with 217 samples.

Results

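GATA6, GATA4, SOX17, FOXA2, HNF4A, SOX7, GSC and EOMES are transcription factors that are used to identify hypoblast and endoderm. They were chosen by name, and each of the 8 had 1 of the 33729 Ensembl chimpanzee identifiers in the table of counts. Their messenger RNA was measured in single cells of day 4 chimpanzee blastoids with SMART-seq2, in which every cell gives its own library of full-length cDNA. Blastoids are blastocyst-like structures formed by naive pluripotent stem cells. The blastoids were made in N2B27 medium by clustering naive cells with a MEK inhibitor, a TGF-β pathway inhibitor, LPA and a ROCK inhibitor, then without the MEK inhibitor, and finally without any of them. Most mural trophectoderm was cut away by hand and treated separately, while polar trophectoderm stayed with the inner cell mass. The labels give no cell line, blastoid or batch for a cell, so the cells form 1 sample of 1 condition, there are no replicates and no difference was tested.

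The hypoblast, called primitive endoderm in the mouse, is the extraembryonic layer that separates from the epiblast in the blastocyst and later lines the yolk sac. In the mouse embryo GATA6 acts first and opposes the epiblast programme led by NANOG. SOX17 and GATA4 follow, and the forkhead factor FOXA2 and the nuclear receptor HNF4A belong to the more mature visceral endoderm, which makes basement membrane and secreted signals. Several of the 8 factors are also used elsewhere: GATA6 in trophectoderm, GSC and EOMES in the primitive streak and definitive endoderm, and SOX7 in parietal endoderm and vessel-forming cells.

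Cells with at least 8000 detected genes were kept and 24 cells were left out. The cells kept had 1679888 to 25630392 reads and formed 4 clusters when the 8 factors and all other listed marker genes were left out of the clustering. A cluster of 32 cells was named hypoblast-like, 1 of 50 cells epiblast-like, and clusters of 60 and 51 cells trophectoderm-like, from 12 markers of each lineage. In the hypoblast-like cluster 10 of the 12 hypoblast markers were at 10 CPM (reads of a gene per 1000000 reads on all genes) or more. APOA1 was at 0.902 CPM and CUBN at 0.817 CPM. These markers gave the cluster its name, so their levels do not test it. In the same cluster 6 of 12 trophectoderm and 5 of 12 epiblast markers also reached 10 CPM. The 10 leading genes of the cluster by fold over the other cells included GATA4 and SOX17, and the naming markers RSPO3, PDGFRA and COL4A1. Median depth was close between classes, at 3978823 reads in hypoblast-like, 3951119 in epiblast-like and 3960857 in trophectoderm-like cells. CPM values are pooled over the cells of a class unless given per cell, with exact Poisson 95% intervals. Shares have Clopper-Pearson 95% intervals, and where nothing was found the limit given is 3 cells or 3 reads of the total. Reads carry no molecular identifiers, so several reads can come from 1 molecule and the Poisson intervals are too narrow even for the error of counting. They also leave out the spread between cells. Without its highest cell, the hypoblast-like level of each of the 8 factors fell below its interval. GATA4 fell from 92.2 to 67.99 CPM, GATA6 from 306 to 285.4 CPM and GSC from 39.2 to 31.28 CPM. The intervals of shares cover the error of counting cells alone. Longer transcripts give more reads and no exon lengths were used, so levels are compared between cells and classes, never between genes.

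The 8 factors fell into 3 patterns over the classes. SOX17, GATA4, FOXA2 and GSC were nearly limited to hypoblast-like cells, GATA6 and HNF4A were highest there but were also read in many cells of other classes, and SOX7 and EOMES did not mark hypoblast-like cells. Against epiblast-like cells, 6 of 8 factors were 4-fold or more higher in hypoblast-like cells, where 3.11% of the 12878 genes with 1 CPM in either class were. Against trophectoderm-like cells, 5 of the 7 factors that reached 1 CPM in either class were 4-fold or more higher, where 7.09% of 12480 genes were, and EOMES was the factor that did not reach 1 CPM. GATA4, FOXA2 and GSC entered both comparisons through their hypoblast-like level alone, and SOX17 the second, so these counts describe the factors and carry no further weight.

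**Figure D1:**
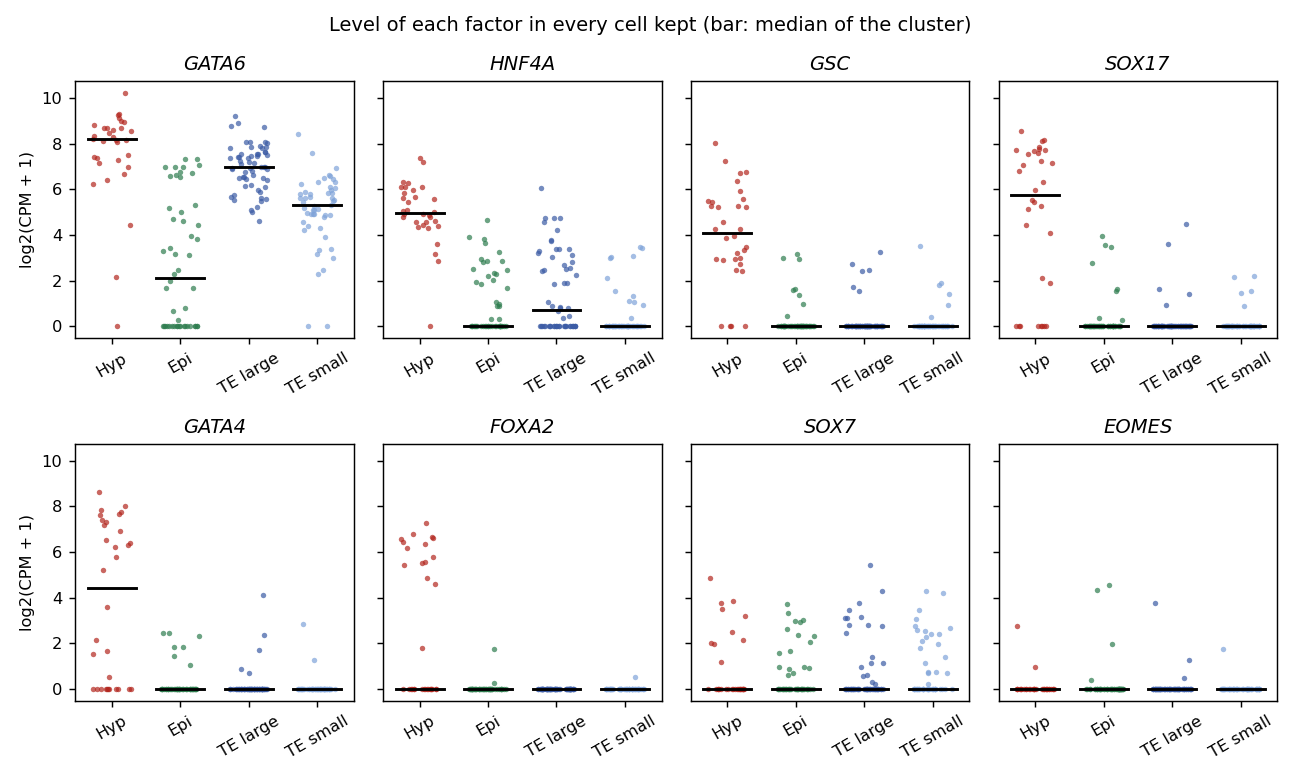
Level of each of the 8 factors in every cell kept, as log2(CPM + 1) on the vertical axis, in hypoblast-like (Hyp, 32 cells), epiblast-like (Epi, 50), larger (TE large, 60) and smaller (TE small, 51) trophectoderm-like clusters, with a bar at the median. GATA4, FOXA2 and GSC sit at or near 0 outside hypoblast-like cells, GATA6 is present in nearly all trophectoderm-like cells, and SOX7 and EOMES do not stand out in hypoblast-like cells.

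GATA6 (ENSPTRG00000009913), a zinc finger factor, was read in 31 of 32 hypoblast-like cells (96.9%, 83.8% to 99.9%), and 30 reached 10 CPM. The per-cell level ran from 0 to 1195 CPM with a median of 289 CPM, and the pooled level was 306 CPM (303 to 309). Trophectoderm-like cells came next, at 104.7 CPM (103.8 to 105.6), and epiblast-like cells were lowest, with a read in 31 of 50 and 33.97 CPM (33.2 to 34.8). The hypoblast-like level was thus 9.0-fold the epiblast-like and 2.92-fold the trophectoderm-like one. Between the trophectoderm-like clusters GATA6 differed about as much, with reads in 60 of 60 cells at 156.6 CPM (155.1 to 158.1) in the larger and in 49 of 51 at 49.7 CPM (48.9 to 50.6) in the smaller. Single cells overlapped across all classes, up to 160.03 CPM in an epiblast-like and 583 CPM in a trophectoderm-like cell. The hypoblast-like median of 289 CPM was above every epiblast-like cell. Only the hypoblast-like cells at 600, 629 and 1195 CPM were above every cell of both other classes, so GATA6 alone did not set most of the class apart.

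SOX17 (ENSPTRG00000020254), an HMG-box factor, was read in 24 of 32 hypoblast-like cells (75%, 56.6% to 88.5%), at 110.5 CPM (108.7 to 112.3) with a per-cell median of 53.5 and a highest value of 377 CPM. Reads were also found in 8 of 50 epiblast-like cells, at 1.20 CPM (1.06 to 1.36), and in 5 cells of each trophectoderm-like cluster, at 0.428 CPM (0.373 to 0.488) over both. The latter was 0.683 CPM with a minimum of 7000 genes and 0.679 CPM without one. No cell outside the cluster exceeded 21.4 CPM, below the many hypoblast-like cells that ranged from 34.5 CPM upwards. GATA4 (ENSPTRG00000019993), the partner GATA factor, was at 92.2 CPM (90.6 to 93.9) in hypoblast-like cells, and per cell from 0 to 396 CPM with a median of 23.8. Outside them 7 epiblast-like cells had a read, for 0.3625 CPM (0.287 to 0.452), and so did 7 trophectoderm-like cells, for 0.205 CPM (0.168 to 0.248). Of these 14 cells 1 reached 10 CPM, at 16.4 CPM.

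FOXA2 (ENSPTRG00000048023), a forkhead factor that opens closed chromatin, was read in fewer cells outside the class than any other of the 8. It was at 29.5 CPM (28.6 to 30.5) in hypoblast-like cells, and its per-cell values fell apart into 17 cells at 0, 1 at 2.52 CPM and 14 between 23.2 and 152.95 CPM. Elsewhere 2 of 50 epiblast-like cells and 1 trophectoderm-like cell had a read, at no more than 2.39 CPM in any cell. The larger trophectoderm-like cluster had a read in 0 of 60 cells, which allows a share of up to 5.00%.

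GSC (ENSPTRG00000006687), a homeobox factor of the gastrula organizer, was read in 28 of 32 hypoblast-like cells (87.5%, 71.01% to 96.5%), more cells than SOX17 or GATA4. At 10 CPM GSC was in 19 cells (59.4%), fewer than SOX17 in 22 (68.8%) and more than GATA4 in 17. Its pooled level there was 39.2 CPM (38.1 to 40.3), with a per-cell median of 16.2 and a highest value of 260.4 CPM. In the epiblast-like class 8 of 50 cells had a read, for 0.720 CPM, and in the trophectoderm-like class 6 cells of each cluster did, for 0.331 CPM. The epiblast-like cells with GSC all had GATA6 as well: 8 of 31 cells with GATA6 had a GSC read (25.8%, 11.9% to 44.6%), and 0 of the 19 without GATA6.

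HNF4A (ENSPTRG00000013519) was read in 31 of 32 hypoblast-like cells, 29 of them at 10 CPM or more, and a pooled level of 40.2 CPM (39.1 to 41.3). Its hypoblast-like values had quartiles of 22.2 and 57.5 CPM around a median of 30.4. Low levels were common elsewhere, at 2.80 CPM (2.58 to 3.03) in epiblast-like cells, 24 of 50 with a read, and 3.30 CPM (3.15 to 3.46) in the trophectoderm-like class. The trophectoderm-like clusters differed here too: 33 of 60 cells of the larger had a read, at 5.72 CPM (5.44 to 6.02), against 12 of 51 of the smaller, at 0.738 CPM (0.635 to 0.852). Only 8 cells of the larger cluster, 1 of the smaller and 4 of the 50 epiblast-like cells reached 10 CPM.

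SOX7 (ENSPTRG00000050907), an HMG-box factor of the same subfamily as SOX17, was low and spread over all classes. Reads occurred in 10 of 32 hypoblast-like (31.3%, 16.1% to 50.01%), 17 of 50 epiblast-like (34%, 21.2% to 48.8%), 19 of 60 larger-cluster (31.7%, 20.3% to 44.96%) and 21 of 51 smaller-cluster trophectoderm-like cells (41.2%, 27.6% to 55.8%), and these intervals overlapped. Pooled levels were 2.30, 1.37 and 1.92 CPM, and 1.72, 1.08 and 1.65 CPM without the highest cell of each class, all small against the highest single cell of each, at 28.4, 12.1 and 42.3 CPM. EOMES (ENSPTRG00000014705), a T-box factor of the streak and of mouse trophoblast, was read in 2 of 32 hypoblast-like cells, 4 of 50 epiblast-like cells and 4 trophectoderm-like cells. None of the 2 hypoblast-like cells reached 10 CPM, and the hypoblast-like level of 0.272 CPM fell to 0.0405 CPM without the higher of them. The epiblast-like level was higher, at 1.08 CPM, and the trophectoderm-like level was 0.182 CPM. Without the highest cell of each class these were 0.737 and 0.0509 CPM, and each rested on the few cells with a read.

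The order of the factors by number of cells was kept at equal depth. When cells were thinned to 2532312 reads, and shallower cells left out, GATA6 was read in 24 of 25 hypoblast-like cells, HNF4A in 24, GSC in 23, SOX17 in 18, GATA4 in 15, FOXA2 in 10, SOX7 in 8 and EOMES in 2. Without thinning these numbers were 31, 31, 28, 24, 21, 15, 10 and 2 of 32. The 15 cells with FOXA2 had a lower median total (3620964 reads) than the 17 without it (4336681 reads).

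Hypoblast-like cells differed in how many of the factors they held. A cell had reads of 2 to 7 of the 8 factors, with a median of 5, and 29 of 32 cells had at least 3. In the other classes the median was 2 in both, and cells with at least 5 numbered 4 of 50 in the epiblast-like and 2 in the trophectoderm-like class. At 10 CPM the contrast was sharper, with at least 3 factors in 26 of 32 hypoblast-like, 0 of 50 epiblast-like, 3 of 60 larger-cluster and 1 of 51 smaller-cluster trophectoderm-like cells.

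Detection was nested. All 15 cells with FOXA2 had GATA4 (100%, 78.2% to 100%), while 6 cells had GATA4 without FOXA2. Likewise 19 of the 21 cells with GATA4 had SOX17, 5 cells had SOX17 without GATA4, and 2 had GATA4 without SOX17. All 24 cells with SOX17 had GATA6 and HNF4A, but each was also in 7 of the 8 cells without SOX17 (87.5%), so these pairs say little of an order. GSC was in 23 of the 24 and in 5 of the 8. The factors were then ordered by the number of these same cells with a read, which by itself favours a high share without gaps, so the shares describe the cells and are no support for the order. Read as SOX17, then GATA4, then FOXA2, 30 of 32 cells held the factors without a gap (93.8%, 79.2% to 99.2%), and with GATA6, HNF4A and GSC put before them 28 of 32 did (87.5%, 71.01% to 96.5%). At 10 CPM the order of 3 held in 31 of 32 cells, but the order of 6 in 24 of 32 (75%, 56.6% to 88.5%). At that level all 17 cells with GATA4 had GATA6, HNF4A and SOX17, and 13 of 14 cells with FOXA2 had GATA4. SOX7 did not join this order, since its 10 cells were scattered over cells with and without SOX17, GATA4 and FOXA2. The cells were taken at 1 day, so the nesting gives an order of detection across cells and not an order in time.

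**Figure D2:**
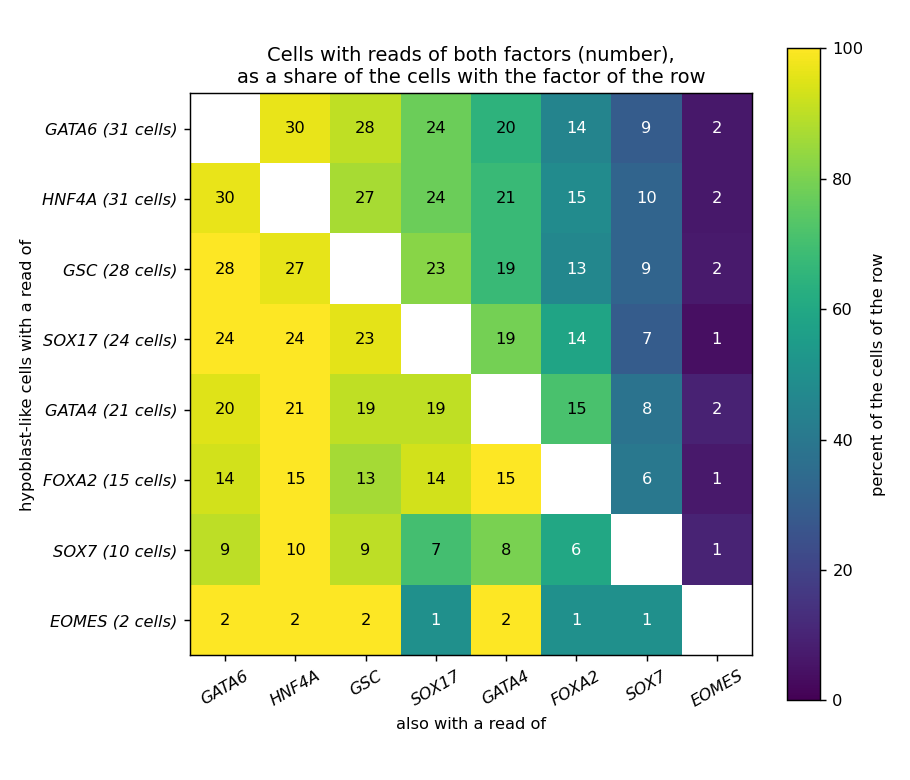
Number of hypoblast-like cells with reads of both factors, for each factor with a read (rows) and each second factor (columns), coloured by the percent of the cells of the row. The FOXA2 row holds 15 of 15 cells with GATA4 and HNF4A, while the GATA4 row holds 15 of 21 with FOXA2, and the SOX7 and EOMES columns stay low.

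By this order the 32 cells were 6 with none of SOX17, GATA4 and FOXA2, 5 with SOX17 alone of the 3, 6 with GATA4 but no FOXA2, and 15 with FOXA2. The first 6 cells all had GATA6, 5 had HNF4A and 4 had GSC. Levels in these groups are medians over cells, since leaving out the highest cell moved several pooled levels of the small groups by over 1.5 times. The median of GATA6 was 113.2 CPM in the first group, with values from 3.46 to 285 CPM, and 373, 320 and 322 CPM in the later groups, so the cells with SOX17 alone of the 3 were about as high as the cells with FOXA2. HNF4A had medians of 20.03, 26.5 and 24.8 CPM in the groups without FOXA2 and 56.1 CPM in the group with it. Its pooled levels were 15.3, 26.02, 39.4 and 56.3 CPM, but the value of 39.4 CPM was 24.3 CPM without the highest cell. In the group with GATA4 but no FOXA2, GATA4 itself was low in most cells, at 0.447, 1.90, 3.38, 11.2, 36.4 and 120.4 CPM, whereas 14 of the 15 cells with FOXA2 had at least 53.7 CPM and the other had 2.13 CPM. GSC ran differently, with medians of 6.92, 22.5, 39.5 and 14.4 CPM, and was highest in cells with GATA4 but no FOXA2, where values ran from 10.02 to 260.4 CPM.

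**Figure D3:**
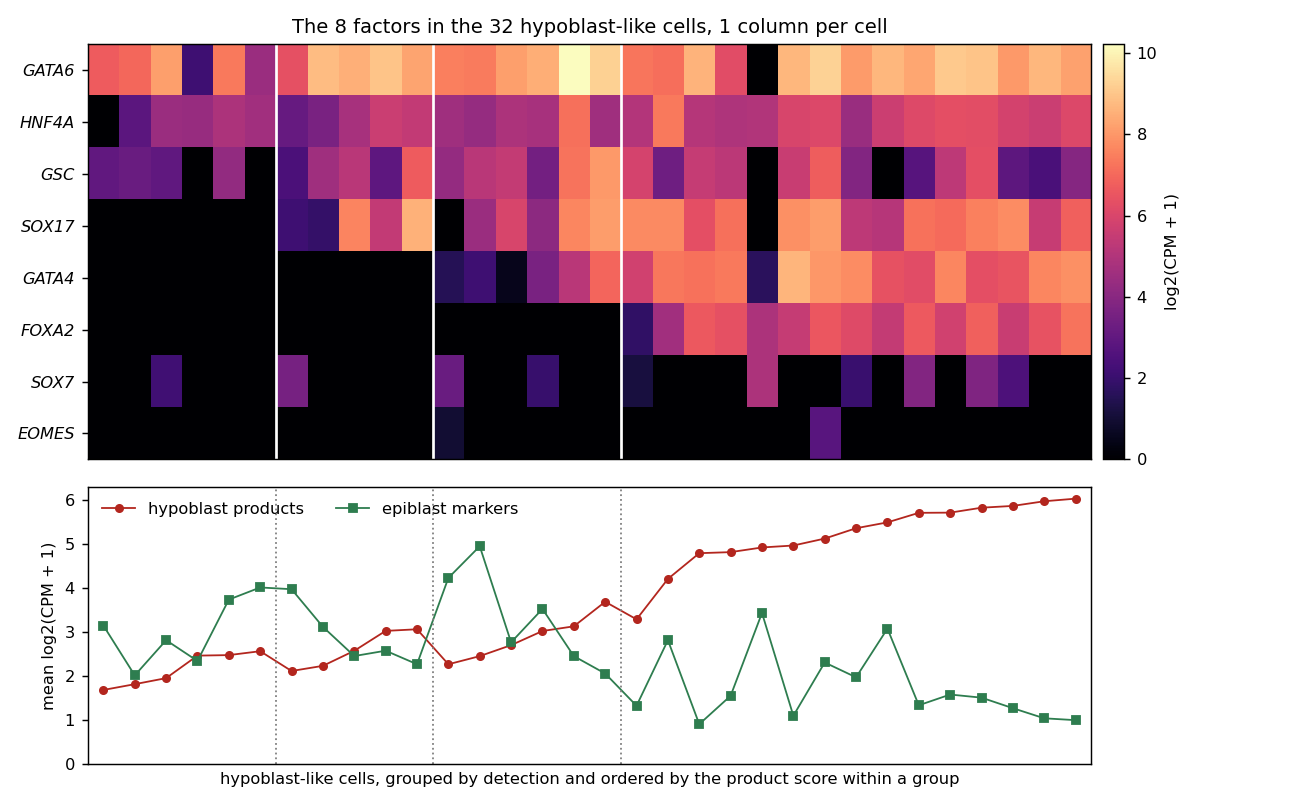
The 8 factors in the 32 hypoblast-like cells (top, 1 column per cell, colour in log2(CPM + 1)) and, below, the mean log2(CPM + 1) of 22 hypoblast products and of 12 epiblast markers in the same cells. Lines separate the 6 cells with none of SOX17, GATA4 and FOXA2, the 5 with SOX17, the 6 with GATA4 and the 15 with FOXA2. GATA6 and HNF4A fill nearly all columns, and the product line rises above 4 among cells with FOXA2.

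A single cell broke the order most. It had FOXA2 at 28.4 CPM and HNF4A at 31.6 CPM but no read of GATA6, SOX17 or GSC, GATA4 at 2.13 CPM, and the highest SOX7 level of the class, 28.4 CPM. It was the only hypoblast-like cell without GATA6, and 0 of 12 trophectoderm markers reached 10 CPM in it. The cell had 2819571 reads, and the other cells with FOXA2 had at least 75.1 CPM of GATA6.

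Over the 32 cells, FOXA2 and GATA4 had the highest correlation between any pair of the 8 (Spearman rho 0.81). SOX17 went with HNF4A (0.64), GSC (0.64) and GATA4 (0.57), while FOXA2 and GSC were hardly related (0.07). GATA6 was closest to SOX17 (0.52) and GSC (0.52), and its rho with FOXA2 was 0.23. These correlations are across cells of 1 sample, whose shared blastoids or batches are not given in the labels, and they are descriptions.

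The products of the hypoblast separated the factors further. The mean log2(CPM + 1) of 22 products, among them basement membrane proteins, signals, receptors and apolipoproteins, ran from 1.69 to 6.03 over the 32 cells. Its rho was 0.87 with FOXA2, 0.82 with GATA4, 0.78 with HNF4A, 0.59 with SOX17, 0.40 with GATA6, 0.11 with SOX7 and 0.10 with GSC. FOXA2 and GATA4 changed places at equal depth (0.85 and 0.86) and without a minimum of detected genes (0.81 and 0.83), and without that minimum GSC was at 0.54. The values of SOX17 and GATA6 moved when cells with trophectoderm markers were left out. In the 20 cells with fewer than 5 such markers at 10 CPM they were 0.21 and 0.23, and in the 5 cells with fewer than 3 they were -0.30 and -0.60, while FOXA2 was at 0.83 and 0.78. In the 14 cells with FOXA2 at 10 CPM or more the product mean was 4.21 to 6.03, and in the other 18 it was 1.69 to 3.69, so the ranges did not overlap. The cell with FOXA2 at 2.52 CPM lay among the others, at 3.29. The groups without FOXA2 were close to each other, with median product means of 2.21 in cells with none of the 3 factors, 2.58 with SOX17 and 2.87 with GATA4, against 5.36 with FOXA2.

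Single products kept to different places in this order. PDGFRA, a receptor for PDGF, was read in every hypoblast-like cell and had a median of 83.8 CPM in the cells with none of the 3 factors, and of 441, 337 and 590.1 CPM in the groups with SOX17, GATA4 and FOXA2. BMP2, a signal of the BMP family, was likewise read in every cell, with medians of 131.4, 258.3, 346 and 420.4 CPM. COL4A1, a collagen of basement membranes, had medians of 0, 0, 0.634 and 350.3 CPM, and its lowest cell with FOXA2 (63.4 CPM) was above its highest cell without (15.1 CPM). The WNT pathway proteins RSPO3 and FRZB were highest in the same group, RSPO3 with medians of 6.96, 0.337, 19.5 and 743 CPM and FRZB of 0, 6.69, 2.65 and 340.4 CPM. SPARC, a matrix protein that the other classes also expressed at over 200 CPM, had medians of 79.6, 109.3, 225.7 and 1835 CPM. The laminin chain LAMB1 had medians of 125.5, 237.5, 136.2 and 561 CPM. Its pooled level was 370.2 CPM in hypoblast-like, 271.6 CPM in trophectoderm-like and 74.6 CPM in epiblast-like cells. The apolipoprotein APOC1 had medians of 3.36, 3.37, 7.32 and 56.6 CPM, with a read in all 15 cells with FOXA2. APOA1 had a read in 13 of 32 cells, 11 of them with FOXA2, and APOA2 in 4, all with FOXA2, and both had medians below 1 CPM in each group. No read of CER1 or AFP was found in any hypoblast-like cell, which allows up to 0.0233 CPM.

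**Figure D4:**
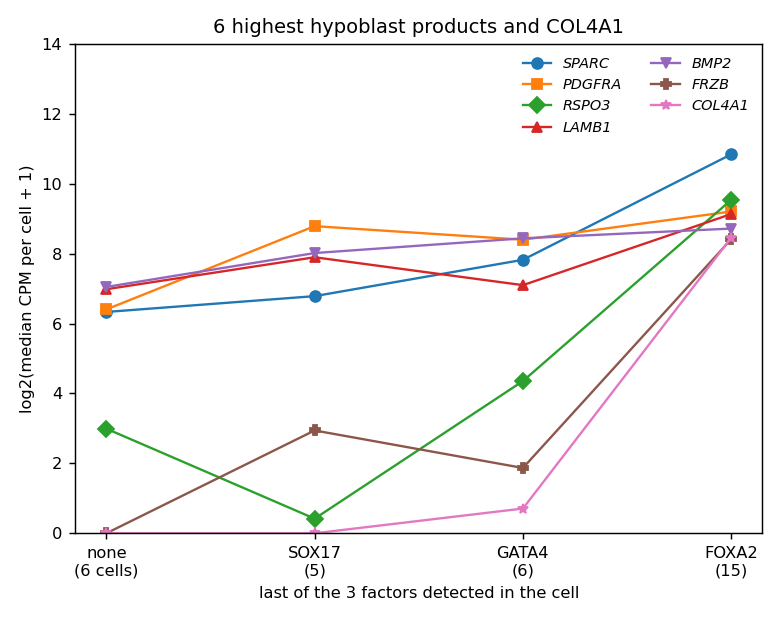
Median level per cell, as log2(CPM + 1), of the 6 highest hypoblast products and COL4A1 in hypoblast-like cells grouped by the last of SOX17, GATA4 and FOXA2 that was read. PDGFRA is higher from the SOX17 group on, while COL4A1, FRZB and RSPO3 are highest in the FOXA2 group.

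**Figure D5:**
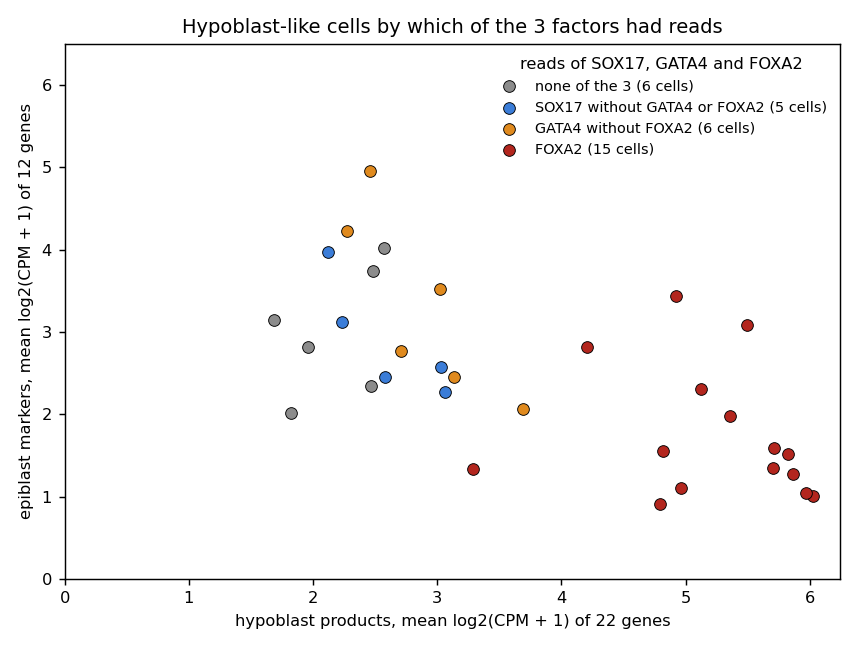
Mean log2(CPM + 1) of the 22 hypoblast products (horizontal) and of the 12 epiblast markers (vertical) in the 32 hypoblast-like cells, 1 point per cell, coloured by which of SOX17, GATA4 and FOXA2 had reads. The cells with FOXA2 lie to the right, at 3.29 to 6.03, and the groups with none of the 3 factors, SOX17 or GATA4 overlap at 1.69 to 3.69.

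Epiblast markers ran the other way. Their mean had a rho of -0.69 with the product mean, of -0.71 with FOXA2, -0.62 with GATA4, -0.59 with SOX17 and -0.34 with GATA6. POU5F1 was read in all 32 cells and had medians of 636, 513, 644 and 218.4 CPM in the 4 groups, and NANOG of 21.9, 59.9, 62.4 and 1.38 CPM. Both were lowest in the group with FOXA2. Single cells still overlapped. The cell with FOXA2 at 28.4 CPM and no read of GATA6 had an epiblast mean of 3.44, above the median of every other group. A cell with FOXA2 at 42.3 CPM had an epiblast mean of 3.08, above the median of every other group but 1.

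Markers of trophectoderm were present in hypoblast-like cells as well. All 12 genes of that list had a read in the class, 11 were at 1 CPM or more, and between 0 and 8 of them (median 4) reached 10 CPM in a cell. The list summed to between 0 and 1900.4 CPM per hypoblast-like cell, against 916 to 19012 CPM per trophectoderm-like cell. KRT19 (417 CPM), GATA3 (58.5), GATA2 (44.5), PGF (38.9), CGA (33.5) and SLC28A3 (14.6) were the highest, although SLC28A3 was at 6.10 CPM without its highest cell. The medians of 5, 2, 5 and 3 markers per cell in the 4 groups did not follow the order of the factors. Left to the 20 cells with fewer than 5 such markers at 10 CPM, all cells with FOXA2 still had GATA4, and the median was 6 factors per cell. With fewer than 3 markers allowed, 5 cells remained. No doublet caller was run, and the part of mixed cells in these values was not tested beyond this.

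Of 15 other endoderm transcription factors, 5 reached 10 CPM in hypoblast-like cells. OTX2, a homeobox factor of anterior and extraembryonic endoderm, was at 102.8 CPM in hypoblast-like cells, at 5.29 CPM in the epiblast-like and 14.04 CPM in the trophectoderm-like class, and had medians of 32.5, 48.5, 86.8 and 77.9 CPM in the 4 groups. PRDM1 was higher in epiblast-like (70.3 CPM) than in hypoblast-like cells (22.05 CPM), and NR5A2 was at 12.1 CPM in the epiblast-like and 19.1 CPM in the hypoblast-like class. Against epiblast-like cells 11 of the 15 reached 1 CPM in either class. Of these 11, 4 were 4-fold or more higher, where 3.11% of all genes were, and 2 were 4-fold or more lower. Their median fold was 1.59, against 0.882 over all genes. Against trophectoderm-like cells 8 of 9 were 4-fold or more higher, where 7.09% of all genes were, and 0 lower. Their median fold was 7.32, against 0.986 over all genes. Of the 15, 9 reached 1 CPM in hypoblast-like but 3 in trophectoderm-like cells. Most thus entered the trophectoderm-like comparison through their hypoblast-like level alone, so its count and median carry no further weight. The 22 products gave 13 higher and 0 lower against epiblast-like cells, with a median fold of 9.90 over 17, and 11 higher and 1 lower against trophectoderm-like cells, with a median fold of 9.77 over 17, but all 12 markers that named the hypoblast-like cluster are among the 22.

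Other endoderm factors were close to absent. FOXA1 and SOX18 had no read in the 32 hypoblast-like cells (a share of up to 9.38% is allowed by this count), LHX1 and MIXL1 had reads in 1 cell each, and HHEX in 2. Genes of the primitive streak were also nearly absent where GSC was high: TBXT had no read in hypoblast-like cells, MIXL1 and MESP1 were below 1 CPM, and HAND1, at 15.3 CPM (7.77 CPM without its highest cell), was the highest of the 8 genes of that list but was at 62.8 CPM in trophectoderm-like cells. Of 8 anterior endoderm genes LEFTY1 alone reached 1 CPM in hypoblast-like cells, at 1.28 CPM with a read in 8 of 32, and at 0.620 CPM without its highest cell.

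The genes with the levels most like each factor, among 13023 genes with a symbol, were taken first over all cells kept. For GATA4 they included RSPO3 (rho 0.61) and SOX17 (0.55), for SOX17 they included GSC (0.61) and PDGFRA (0.60), and for FOXA2 they included GATA4 (0.65) and CA4 (0.60). GSC was closest to PDGFRA (0.66), SOX17 (0.61) and HNF4A (0.59), and HNF4A to MARCKS (0.61), GSC (0.59) and IDH1 (0.58). GATA6 was closest to MYOF (0.69), TBX3 (0.66) and TLE1 (0.66), which were lowest in epiblast-like cells, as GATA6 was. MYOF, for one, was at 215.5 CPM in hypoblast-like cells, 31.96 CPM in the epiblast-like and 221.1 CPM in the trophectoderm-like class. Within the 32 hypoblast-like cells, FOXA2 was closest to DPP4 (0.87), SPARC (0.87) and COL4A1 (0.86), GATA4 to PPP1R14A (0.86), GASK1B (0.84) and SPART (0.84), and HNF4A to LAMB1 (0.81), LRCH1 (0.78) and GLYCTK (0.77). SOX17 was closest to PHLDA1 (0.81), EGLN3 (0.77) and BMP2 (0.75), GATA6 to HK2 (0.75), EFNB2 (0.67) and TBX3 (0.64), and GSC to ANAPC10 (0.72), HPS1 (0.71) and PPM1G (0.70). Unlike GSC, ANAPC10 was similar in the classes, at 41.6 CPM in hypoblast-like, 43.1 in epiblast-like and 39.1 in trophectoderm-like cells. SOX7 reached 0.62 with ZNF433 in the 32 cells. Each gene was picked as highest of 13023, and the rho that such a pick gives among unrelated genes was not tested. For SOX7 and EOMES no gene exceeded a rho of 0.32 over all cells, too weak in counts this sparse to read.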

How the data were processed

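Single cells of day 4 chimpanzee blastoids were sequenced with SMART-seq2. The deposited table holds raw read counts per Ensembl gene and cell, made by the authors by trimming, aligning and counting reads with STAR. The submitters' processing notes name Trim Galore 0.6.6 and STAR 2.7.7a, and name a human genome build where the study's methods name the chimpanzee genome, so the build behind the counts is uncertain. The values carry no further normalization. The table held 33729 identifiers, and symbols were found for 18783 of them. No pair of cells had identical counts, and 4 listed symbols with more than 1 identifier were summed.

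Cells with at least 4000 reads and 8000 detected genes were kept, the minimums of the study's methods, which left more cells here than the study states. Genes read in at least 20 cells were log-normalized and clustered with Scanpy 1.11.5 in Python 3.11.15 (50 principal components, 30 neighbours, Leiden resolution 1 with leidenalg 0.10.2, seed 0). All 97 listed genes were left out of the 15737 genes clustered. Clusters were named from 12 markers per lineage, so the class names are rebuilt and can differ from those of the study. Doublets were neither called nor removed.

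Counts were summed per class and divided by the summed library totals to give CPM, and intervals were computed with scipy 1.17.1. A factor counted as detected in a cell at 1 read. Genes with at least 1 CPM in either class formed the background of the 4-fold counts. Cells were thinned to the 10th percentile of the totals. All members were described. From each gene list the genes at 10 CPM or more in hypoblast-like cells were named, up to 6 per list, together with the 3 genes most like each member by Spearman correlation, and other genes were named after their values were seen. Some genes that this rule names are not reported here. The members and the lists were chosen with earlier results of these data known. With 1 sample, no test was made. Depth leaves a limit of 3 reads per class where none was found. The steps were tested on simulated data. Alternatives changed the gene minimum, the clustering, the detection level, the fold, the summary over cells and the cells with markers of a second lineage.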

Additional observations from a re-analysis of the deposited data

Results flagged for a closer look

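The 24 cells with fewer than 8000 detected genes were used in no comparison, and they held reads of the factors. At 10 CPM or more, GATA6 was found in 13 of them, SOX17 in 7, HNF4A in 6, GSC in 4, GATA4 in 3 and FOXA2 in 1. SOX7 had no read in these cells and EOMES was read in 1. They had 2330 to 7984 genes and a median of 1660767 reads, with 5792 reads in the shallowest, so 10 CPM rests on fewer reads there than in the cells kept. When no gene minimum was set, 16 of the 24 joined the hypoblast-like cluster, and of these GATA6 and HNF4A were read in 8 each, SOX17 in 7, GATA4 and GSC in 5 each and FOXA2 in 1. The cell just inside the minimum had 8199 genes, 3278154 reads and 1 of the 8 factors, and the cell just outside had 7984 genes, 2250465 reads and 3 of them.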

How the results depend on the processing

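The number of hypoblast-like cells was 32. It was 5 when cells with at least 3 trophectoderm markers at 10 CPM were left out, and 20 when the limit was 5 markers, an alternative chosen after seeing the data. These were 2 of the 76 alternatives to the main counts and shares, and the other 74 stayed within the interval of a share or within 1.5 times a count. Of the remaining values, 50 moved beyond these limits (1.5 times for levels) and 567 did not. Leaving out the highest cell of each group by SOX17, GATA4 and FOXA2 was also chosen after seeing the data. In the 5 cells, GATA4 was at 38.7, GATA6 at 191.9, HNF4A at 25.9, GSC at 18.9 and SOX7 at 6.83 CPM, 7 factors were 4-fold or more higher than in epiblast-like cells, and the correlations of GATA6 (-0.60), SOX17 (-0.30) and GSC (-0.10) with the product mean had the opposite sign to those in 32 cells. With a gene minimum of 7000, 9000 or none the class had 34, 29 and 48 cells. Without a minimum, GATA6 and HNF4A were each read in 81.3% and GSC in 68.8% of its cells. With detection at 10 CPM, SOX7 was found in 12.5%, GSC in 59.4% and EOMES in 0% of the 32 cells, and GATA4 in 92.9% of the cells with FOXA2. At a 10-fold limit 5 factors were higher than in epiblast-like cells, and at 2-fold 6 were higher than in trophectoderm-like cells. No paired analysis was possible because the cells are 1 sample of 1 condition and no groups of samples were compared. With 1 sample, cluster names rebuilt here and no exon lengths, the values describe these cells and not chimpanzee blastoids in general.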
